A study of Mus musculus with 13 samples.

Results

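The regions described are sites in mouse LβT2 cells where SMAD2/3 peaks were listed after activin but not with vehicle, on chromatin bound by the forkhead factor FOXL2 and outside acetylated histone regions. There were 1075 of them among 5162 SMAD2/3 regions with a peak in both activin lists. They were chosen by 3 clauses. Neither vehicle SMAD2/3 list had a peak in the region, FOXL2 peaks of both activin lists met at the region, and it overlapped no region of histone H3 lysine 27 acetylation (H3K27ac) found in both activin lists. The first clause was met by 4642 of the 5162 regions, a background of 89.9%, and 3740 of these had FOXL2. The other 2665 of the 3740 overlapped H3K27ac and serve below as the acetylated new sites.

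LβT2 is a line with the character of gonadotropes, the pituitary cells that secrete gonadotropins. All cells, vehicle and activin alike, had been stably transduced by lentivirus with a FLAG-tagged mouse FoxL2 cassette under doxycycline control and constitutive GFP, and all received doxycycline for 48 h. The FOXL2 peaks are therefore those of an induced, tagged protein in a population of a single line. After 2 h in 2% serum the cells received, for 1 h, either vehicle or activin A at 1 nM. Chromatin was precipitated for SMAD2/3, for the FLAG tag or for H3K27ac, in 2 libraries per treatment and target, each made from 3 pooled plates. The labels do not say whether the duplicates were independent cultures, so the spread between libraries may be technical. A Protein-A control sample was not analysed here.

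Activin binds receptor serine kinases that phosphorylate SMAD2 and SMAD3, which then enter the nucleus with SMAD4 and bind DNA beside other factors. FOXL2 is a forkhead factor of pituitary gonadotropes and ovarian granulosa cells and acts with SMADs on the follicle-stimulating hormone β subunit gene. H3K27ac marks active promoters and enhancers, and a bound site can itself be depleted of the nucleosomes that carry the mark.

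The 12 peak lists held 144 and 605 peaks (vehicle SMAD2/3), 5970 to 7784 (activin SMAD2/3), 83834 to 97701 (FOXL2) and 38995 to 41763 (H3K27ac). Reads per library are unknown. The pair of activin H3K27ac lists differed around the regions described here, as the values by library show. As a check of cell identity by the deposited annotation, a promoter-class H3K27ac peak was listed for Egr1 in all 4 H3K27ac lists, for Lhb and Nr5a1 in 3, and for none of the other 7 gonadotrope markers. Among 8 markers of other pituitary lineages or stem and support cells, S100b had such a peak in 2 lists and 7 had none. Overlap of H3K27ac peaks with the RefSeq start windows was also examined, a check chosen after the first was seen. Cga, Gnrhr, Lhx3, Gata2 and Lhb had H3K27ac over the start in all 4 lists. Fshb had none, nor had Prl, Pomc, Tbx19, Pou1f1, Tshb, Sox2 or S100b, while 5 of the 18 markers had no start window to examine.

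Only 2 of the 1075 regions overlapped a RefSeq start window (GRCm38.p6), and their sequences are shown because they are the ones at an annotated gene start that could be read. The first is the entire 186-base region at the promoter of Timm10 (ENSMUSG00000027076), a chaperone gene of mitochondrial protein import, at chr2:84826835-84827020 (GRCm38, as are all coordinates below). The second is the 252 bases, at chrX:36027132-36027383, that a region in intron 31 of 48 of Dock11 (ENSMUSG00000031093) shares with the start window of the predicted gene Gm32904. Both are given on the forward strand. Capitals mark GTCT, the 4-base SMAD core, and TGTTT, a forkhead core, which reads AAACA where it lies on the reverse strand.
Timm10: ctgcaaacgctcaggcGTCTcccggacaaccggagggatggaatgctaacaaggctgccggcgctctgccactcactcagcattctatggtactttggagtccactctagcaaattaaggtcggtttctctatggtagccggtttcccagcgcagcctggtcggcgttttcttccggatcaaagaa
Gm32904: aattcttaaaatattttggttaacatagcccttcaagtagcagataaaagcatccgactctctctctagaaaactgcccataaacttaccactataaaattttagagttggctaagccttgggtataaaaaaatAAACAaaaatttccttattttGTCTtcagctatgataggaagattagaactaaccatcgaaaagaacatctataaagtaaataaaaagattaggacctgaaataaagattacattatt
The Timm10 sequence is 54.8% GC and holds GTCT at -97 bp from the SMAD2/3 summit, towards lower coordinates, and no TGTTT. The Gm32904 sequence is 29.4% GC and holds TGTTT at 14 bp and GTCT at 35 bp from the summit. Such short strings are frequent: searched on both strands, GTCT occurs in 88% and TGTTT in 50.5% of 32544 RefSeq start windows of 300 bp, which are longer than both printed sequences. The 2 longer forkhead strings searched for (TGTTTAC, found in 3.66% of windows, and TGTTTGC, in 5.08%) did not occur in either sequence. Other longer forkhead strings were not searched for, so their absence is not shown. At Timm10 the authors' SMAD2/3 fold enrichment was 3.78 and 3.43 in the activin lists, with no peak in either vehicle list. FOXL2 was present there in all 4 lists, with vehicle values of 6.41 and 8.6 and activin values of 5.7 and 7.64. Timm10 was thus a weakly bound example, at a mean SMAD2/3 percentile rank of 17.1. The nearest H3K27ac region found in both vehicle lists was 0.059 kb away, and that of both activin lists 24.6 kb away.

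FOXL2 was also on most of these regions in cells given vehicle. A vehicle FOXL2 peak was present at 948 regions (88.2%) in library 1 and 934 (86.9%) in library 2. Both vehicle lists had one at 917 of 1075 (85.3%, Wilson 95% interval 83.1 to 87.3). Of all 80739 FOXL2 regions shared by the activin lists, 73.1% had peaks in both vehicle lists. In the acetylated new sites the share was 83.6%, so the classes differed by 1.74 points (Newcombe 95% interval -0.884 to 4.2). By library, the difference was -0.621 points in one vehicle library and 1.62 points in the other (exact sign-flip permutation p = 1, smallest possible 0.5). Another 48 regions had FOXL2 in 1 vehicle list, and 110 (10.2%) in neither, against 13.8% of all FOXL2 regions.

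FOXL2 peaks at the non-acetylated regions ranked near the top of their lists. Each peak was given a percentile rank by −log10 q within its list, where 100 is the strongest. The median rank was 87.5 and 86.3 for vehicle, and 92.4 and 92.1 for activin. At the acetylated new sites it was 77.1, 79.7, 82 and 82.7 in the same order. The rank was higher at the non-acetylated regions in 4 of 4 libraries, by 9.19 ± 1.83 percentile points (SD over 4 libraries; exact sign-flip permutation p = 0.125, two-sided, the smallest it can give). Median fold enrichments followed the same order, at 17.4, 13.9, 21.6 and 20 against 10.6, 9.72, 11.5 and 11.3. In the top decile of the activin FOXL2 lists were 603 and 592 of the 1075 regions (56.1% and 55.1%), against 35% and 35.9% of the acetylated new sites.

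**Figure D1:**
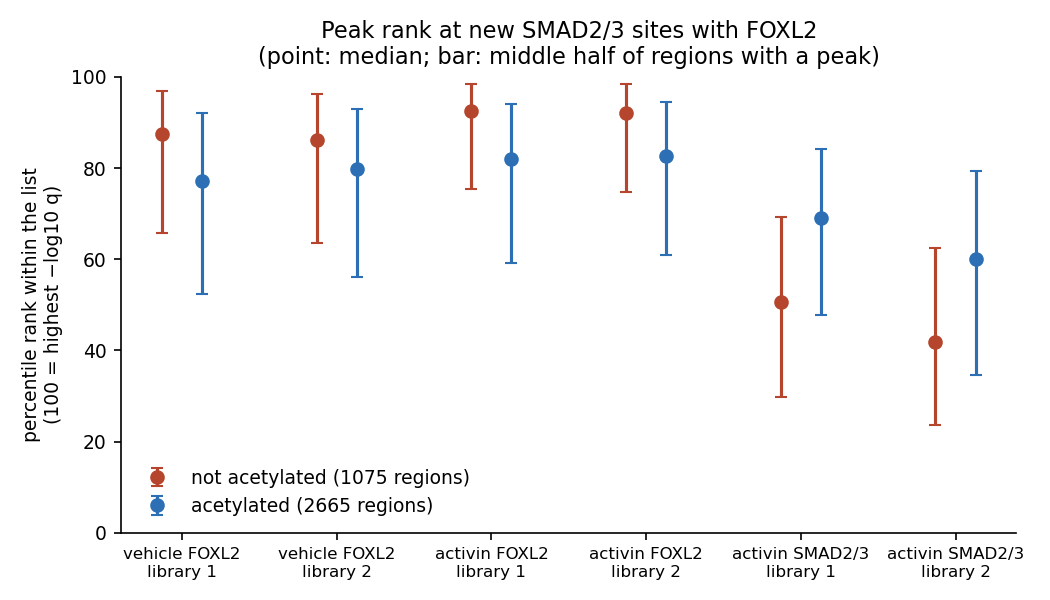
Percentile rank of FOXL2 and SMAD2/3 peaks (y axis, within each list) in each library (x axis) at 1075 non-acetylated and 2665 acetylated new SMAD2/3 sites with FOXL2. Points are medians and bars run from the 25th to the 75th percentile of regions with a peak; FOXL2 medians are higher and SMAD2/3 medians lower at the non-acetylated regions in every library shown.

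In all 4 FOXL2 lists the peak of highest fold enrichment in the whole list lay at one of these regions, an observation made after the values were seen. In both vehicle lists this was the intergenic site chr17:85950720-85950996, whose nearest start, 127 kb off, is that of Gm29418 (ENSMUSG00000100345), at 86.9-fold and 82.7-fold. SMAD2/3 enrichment there was 11.4-fold and 9.6-fold after activin. In activin FOXL2 library 1 it was an intergenic site at chr11:41474645-41474971, 23.9 kb from the pseudogene Hspd1-ps3 (ENSMUSG00000058809), at 88.8-fold. The nearest H3K27ac region there was 719 kb away, where a distance to vehicle or activin H3K27ac at a named site is, here and below, to a region found in both lists of that treatment. In activin FOXL2 library 2 it was a site in intron 2 of 10 of Prkar2b (ENSMUSG00000002997), which encodes a regulatory subunit of protein kinase A, at chr12:32017290-32017507, at 78.7-fold. SMAD2/3 at the Prkar2b site was 7.98-fold and 6.97-fold, well under the strongest of the 1075 regions.

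SMAD2/3 peaks, in contrast, ranked lower here than at acetylated sites in both activin libraries. The median percentile rank was 50.6 in activin library 1 and 41.8 in library 2, against 69.1 and 60 at the acetylated new sites. The difference was -18.4 ± 0.149 points (SD over 2 libraries), lower in 2 of 2 libraries. The exact sign-flip permutation test gave p = 0.5, the smallest it can give for 2 libraries. Ranked by fold enrichment instead of −log10 q, the difference was -6.41 points. Median fold enrichments were 5.93 and 5.69 against 6.46 and 5.97, and the median region was 252 bp wide against 310 bp. Relative to the acetylated sites, FOXL2 thus ranked higher and SMAD2/3 lower. Among the 1075 regions themselves the −log10 q values of SMAD2/3 and FOXL2 had a Spearman rho of 0.178 in activin library 1 and 0.185 in library 2, given as a description, since all points share their libraries.

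SMAD2/3 and FOXL2 summits lay close together. The median distance from the SMAD2/3 summit to the nearest FOXL2 summit of the same library number was 26 and 28 bp, against 30 and 31 bp at the acetylated new sites. Within 50 bp lay 77.7% and 73.4% of the summits, against 67.6% and 65.5%. FOXL2 regions covered 970 of the 1075 regions completely.

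The 110 regions without vehicle FOXL2 had lower FOXL2 ranks after activin as well, given as a description. Their median activin FOXL2 rank was 50.8 and 49.5, and none was in the top decile of either list. The 917 regions with FOXL2 in both vehicle lists had medians of 95 and 94.7. SMAD2/3 ranks differed less, at 39.6 and 36.3 against 52.1 and 43.3. The strongest of the 110 by SMAD2/3 was an intergenic region 33.4 kb from the start of RP23-453O15.1 (ENSMUSG00000107126) at chr5:37950132-37950407. SMAD2/3 was enriched 13.7-fold and 15.3-fold there, and FOXL2 6.27-fold and 6.62-fold, after activin. The next was an intergenic region whose nearest start, at 114 kb, is that of Cobl (ENSMUSG00000020173), an actin nucleator gene, at chr11:12525551-12525919. It had SMAD2/3 at 13.2-fold and 12.3-fold and FOXL2 at 6.83-fold and 5.86-fold. The third was in intron 1 of 13 of Iqsec1 (ENSMUSG00000034312), which encodes a guanine nucleotide exchange factor for ARF6, at chr6:90752068-90752389. Its SMAD2/3 enrichment was 9.71-fold and 13.9-fold, with FOXL2 at 4.97-fold and 4.43-fold. Regions 3.61 kb from the start of Gm15205 and 284 kb from that of Gm5432 completed the strongest 5. They had SMAD2/3 at 11.3-fold and 7.47-fold and at 9.78-fold and 10.4-fold. These 5 were picked for their SMAD2/3 rank within a group of low FOXL2 rank, so their values are a description.

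Absence of H3K27ac at the region was the choosing clause, so it is described without a test. Of the 1075 regions, 883 (82.1%) had no H3K27ac peak in any of the 4 lists. Neither activin list had a peak at 974 of the 1075, a number that the clause largely fixes. Of all 80739 FOXL2 regions, to which no such clause was applied, 79.2% had a peak in neither list. Peaks of activin library 1 overlapped 86 regions and those of library 2 overlapped 16, and 1 region was among both because the peaks there did not touch each other. With vehicle, H3K27ac overlapped 6.05% and 6.79% of the regions. Both vehicle lists had it at 34 regions (3.16%), against 51.4% of all new SMAD2/3 sites, a contrast that the clause on activin H3K27ac largely fixes. Of those 34, 26 had no H3K27ac peak in either activin list, and 25 still lay within 1 kb of an activin H3K27ac region.

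The strongest of the 34 by SMAD2/3 lay in intron 10 of 10 of Ccser1 at chr6:62241738-62242047. Its H3K27ac fold enrichment was 3.66 and 3.53 with vehicle, with no peak after activin, and an activin H3K27ac region began 9 bp away. A region in intron 1 of 5 of Yipf4 (ENSMUSG00000024072), at chr17:74491189-74491660, had 2.64-fold and 2.68-fold with vehicle and a gap of 81 bp after activin. A region in intron 9 of 23 of Trim37 (ENSMUSG00000018548), a ubiquitin ligase gene, at chr11:87162400-87162659, had 4.17-fold and 3.59-fold, and a gap of 4 bp. The region in intron 1 of 5 of Aven nearest to Gm22676 had 5.16-fold and 4.32-fold and a gap of 36 bp. The intergenic region 135 kb from the start of RP24-400K16.1 had 3.23-fold and 4-fold, and its activin H3K27ac was 38.5 kb away. Activin H3K27ac was thus close by in 4 of these 5 regions, its absence from the site itself being set by the rule.

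The gap to the nearest H3K27ac region of both activin lists had a sparse middle range. It was 0.3 kb or less at 353 regions (32.8%), from 0.3 to 2 kb at only 36 (3.35%), from 2 to 10 kb at 133 (12.4%), from 10 to 50 kb at 301 (28%) and over 50 kb at 252 (23.4%). At 367 regions (34.1%, Wilson 95% interval 31.4 to 37) the gap was 1 kb or less. The same was true of 4.42% of 64961 FOXL2 regions that had no SMAD2/3 peak in any list and no H3K27ac region, a difference of 29.7 points (Newcombe 95% interval 26.9 to 32.6). The 161 new SMAD2/3 sites with neither FOXL2 nor H3K27ac had such a neighbour at 50.9% (Wilson 95% interval 43.3 to 58.5). The median gap was 11.4 kb against 26.8 kb in the FOXL2 regions without SMAD2/3. The share within 1 kb was 60.5% when measured to peaks of activin H3K27ac library 1 alone, that is without library 2, and 41.4% to those of library 2 alone. The median gap also shifted with the choice of lists. Measured to H3K27ac peaks of either activin list, which include every region of both and can only shorten gaps, it was 0.121 kb. It was 2.86 kb when activin H3K27ac library 1 was left out of the choice of regions, and the cause of that shift was not tested.

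**Figure D2:**
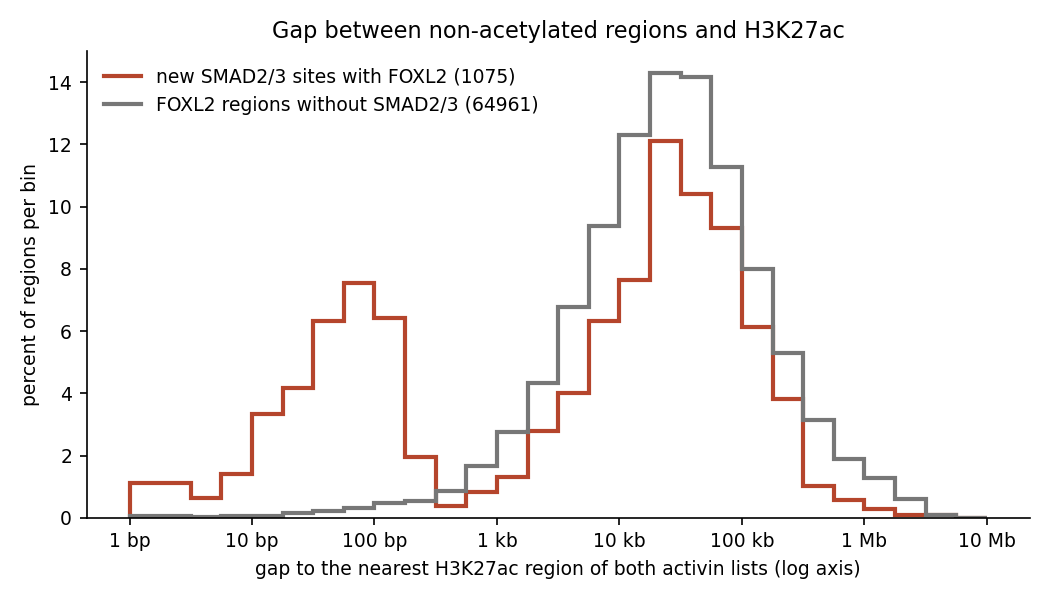
Percent of regions (y axis) by the gap to the nearest H3K27ac region found in both activin lists (x axis, log scale) for 1075 non-acetylated new SMAD2/3 sites with FOXL2 and for 64961 FOXL2 regions with neither SMAD2/3 nor H3K27ac. The new SMAD2/3 sites have a group of gaps under 0.3 kb (32.8% of regions) that makes up 1.83% of the FOXL2 regions without SMAD2/3.

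Among the 367 regions with H3K27ac within 1 kb, the median gap was 57 bp and 265 had a gap of 100 bp or less. H3K27ac flanked 124 of them (33.8%) on both sides. At 165 of the 367 (45%) neither vehicle list had an H3K27ac peak at or within 1 kb, and at 161 (43.9%) both had one. Of the 2870 FOXL2 regions without SMAD2/3 but with a neighbouring activin H3K27ac region, 20.3% had no vehicle H3K27ac at or within 1 kb. Both sets were kept for their activin H3K27ac, and their median gaps differed, at 57 and 409 bp. The part of either in the difference of 24.6 points was not tested. Regions near to and far from H3K27ac both kept the order seen against acetylated sites. The median FOXL2 rank was higher than at the acetylated new sites by 8.31 ± 1.32 points within 1 kb and by 9.66 ± 2.32 points beyond it (SD over 4 libraries, exact sign-flip permutation p = 0.125 for each, the smallest possible). The SMAD2/3 rank differed by -12.2 ± 1.4 points within 1 kb and -21.2 ± 0.931 points beyond it (SD over 2 libraries, exact sign-flip permutation p = 0.5 for each, the smallest possible).

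H3K27ac next to these regions was listed more often in both activin libraries than in either vehicle library. A peak from 1 bp to 5 kb away was present at 29.3% and 27% of the regions for vehicle, and at 57.4% and 46.8% for activin. Both activin values were above both vehicle values, by 24 points between the means (28.1% ± 1.64 and 52.1% ± 7.5, SD, n = 2 each; exact permutation p = 0.333, two-sided, the smallest that 2 libraries against 2 allow). In FOXL2 regions with neither SMAD2/3 nor H3K27ac, chosen by the same H3K27ac clause, the shares were 18.5% and 18.3% (vehicle), then 19.9% and 18% (activin). Those groups overlapped, with a difference of 0.609 points (exact permutation p = 1). The excess of the new SMAD2/3 sites over these FOXL2 regions was 10.8 and 8.72 points in vehicle libraries, compared to 37.5 and 28.8 points after activin (exact permutation p = 0.333, the smallest possible). Overlapping peaks, which the clause bars only for activin, do not count as neighbours. The activin lists also chose the regions, so these permutation tests cannot decide whether activin changed the neighbouring H3K27ac. With overlapping peaks included, a peak at or within 1 kb was found at 25.4% and 23.3% of the regions in vehicle cells, compared to 60.5% and 41.4% after activin. In the FOXL2 regions without SMAD2/3 this share was 10.3% and 9.83% for vehicle against 8.77% and 5.71% for activin. The difference was -2.83 points at 1 kb and -2.61 points at 5 kb (exact permutation p = 0.333 for each, the smallest possible). Because the clause bars overlap for activin alone, it lowers the activin share in both sets. The fall in the FOXL2 regions therefore cannot be read as a change with activin. Without overlapping peaks their difference at 5 kb was the 0.609 points given above. Activin library 1 gave the higher share at each limit. Without it, the difference at 5 kb for the new SMAD2/3 sites, overlapping peaks not counted, was 18.7 points.

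**Figure D3:**
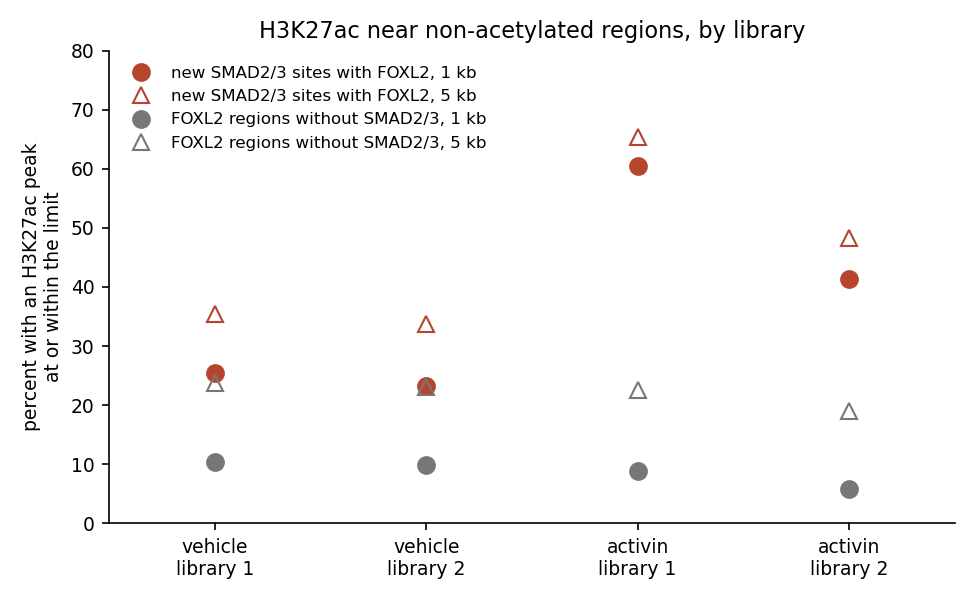
Percent of regions with an H3K27ac peak at or within 1 kb (filled circles) or 5 kb (open triangles) in each H3K27ac library (x axis), for 1075 non-acetylated new SMAD2/3 sites with FOXL2 (red) and 64961 FOXL2 regions with neither SMAD2/3 nor H3K27ac (grey). The red activin points lie above the red vehicle points at both limits, while the grey activin points lie below the grey vehicle points at each limit, all between 5.71% and 23.7%. Overlapping peaks count here, and the choice of regions bars them for activin only, which lowers the activin points.

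In the averaged profile the activin libraries lay above the vehicle libraries beside the regions and overlapped them farther out. At 0.4 kb from the centre, 39.2% and 23.2% of the regions lay inside an activin H3K27ac peak, against 16.7% and 14.9% with vehicle. At 10 kb to either side the 4 libraries gave 2.98% to 4.28%. At the centre itself the values were 1.95% and 0.279% with activin, which the clause keeps low, and 2.79% and 2.88% with vehicle. The acetylated new sites also had a dip at the centre, from 95.8% and 91.3% at 0.4 kb to 81.4% and 69.8% at the centre with activin.

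**Figure D4:**
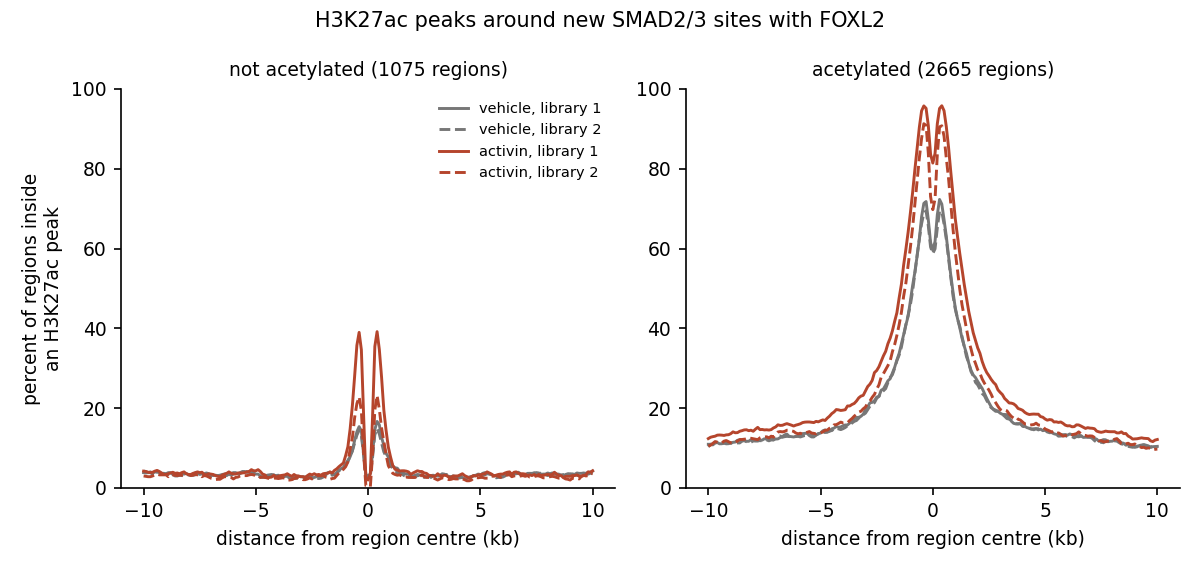
Percent of regions inside an H3K27ac peak (y axis) by distance from the region's centre in kb (x axis) in the 4 H3K27ac libraries, at 1075 non-acetylated (left) and 2665 acetylated (right) new SMAD2/3 sites with FOXL2. On the left, activin libraries reach 39.2% and 23.2% and vehicle libraries 16.7% and 14.9% at 0.4 kb; the low activin values at the centre follow from how the regions were chosen.

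The closest regions touched an H3K27ac region. A site 151 kb from the start of Gm25813 (ENSMUSG00000064682), at chr8:52487887-52488211, directly adjoined activin H3K27ac, and its nearest vehicle H3K27ac region was 92.3 kb away. A site of promoter class in Pcmtd2 (ENSMUSG00000027589) at chr2:181851359-181851624 also adjoined one, with vehicle H3K27ac 77 bp away. Sites nearest to the starts of Tmpo, Pglyrp2 and Gm6209, at 290, 20.7 and 2.92 kb, had gaps of 2 bp. Their vehicle H3K27ac regions were at 11 bp, 7.93 kb and 67 kb, although a peak of vehicle library 2 alone overlapped the Gm6209 site. The farthest, 93.2 kb from the start of Gm5205 (ENSMUSG00000098169) at chr14:40650255-40650555, was 3514 kb from an activin H3K27ac region but 24.2 kb from a vehicle one. At the edge of the rule, 39 regions had a gap of 10 bp or less and 44 acetylated sites overlapped H3K27ac by 10 bp or less. A further 1179 regions met every other clause with a SMAD2/3 peak in a single activin list. Their median SMAD2/3 −log10 q was 6.36 in library 1 and 5.62 in library 2, against 10.7 and 8.5 in the 1075 regions. Leaving out activin SMAD2/3 library 2 would raise the number of regions from 1075 to 2004.

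The 20 regions of highest mean SMAD2/3 rank were divided equally by distance to an H3K27ac region of both activin lists. Of these, 10 lay within 1 kb and 10 beyond 10 kb. Activin H3K27ac peaks outside such regions overlapped some of the latter. They were at Gm15666 (3.13-fold in library 1 and 2.68-fold in library 2, not touching each other), RP23-387L12.4 (2.55-fold, library 1) and Ugt2b36 (2.99-fold, library 1). Over all 20 regions, SMAD2/3 fold enrichment ran from 8.86 to 20.5 in library 1 and from 8.49 to 18 in library 2. Of the 20, 19 had FOXL2 in all 4 lists. By annotation 11 were intronic, 8 intergenic and 1 exonic. The highest rank belonged to intron 2 of 6 of Kcnh7 (ENSMUSG00000059742), a voltage-gated potassium channel gene, at chr2:63083743-63084106. SMAD2/3 was 10.6-fold and 13.3-fold enriched there, while FOXL2 stood at 34-fold and 27.8-fold in vehicle cells, then 30.9-fold and 30.2-fold after activin. The nearest activin H3K27ac region was 86.5 kb away. The highest fold enrichment in library 1, 20.5, was at an intergenic site 114 kb from the start of 4930503O07Rik (ENSMUSG00000103692) at chr1:194108152-194108441. There library 2 gave 17.3, and FOXL2 was modest at 9.17-fold and 12.4-fold with activin. The highest fold enrichment in library 2, 18, was near Gm11509 (ENSMUSG00000081304) at chr11:88326167-88326596, where library 1 gave 17.7 and activin H3K27ac began 9 bp away.

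Several of the strong sites lay inside genes. Intron 2 of 3 of Kif26b (ENSMUSG00000026494), a kinesin family gene, at chr1:178566992-178567516, had SMAD2/3 at 17.9-fold and 13.9-fold. Intron 2 of 3 of Gtdc1 (ENSMUSG00000036890), which encodes a predicted glycosyltransferase, at chr2:44855372-44855937, had 13.5-fold and 13.4-fold with the highest FOXL2 of the 20, at 63.3-fold and 54.3-fold with activin. Their distances to activin H3K27ac were 41.6 kb and 68.7 kb. Intron 3 of 4 of Fgf12 (ENSMUSG00000022523), a fibroblast growth factor homologous factor that modulates sodium channels, at chr16:28336265-28336549, had SMAD2/3 at 9.54-fold and 9.28-fold. Its FOXL2 summits were 428 and 411 bp from the SMAD2/3 summits, the widest separation of the 20. The site in Dennd5a, nearest to the start of Tmem41b (ENSMUSG00000047554), at chr7:109942074-109942388, had SMAD2/3 at 14.8-fold and 14-fold. FOXL2 there was 9.31-fold and 8.09-fold with vehicle, and 29-fold and 26.8-fold in the activin lists. An activin H3K27ac region lay 73 bp away, and vehicle H3K27ac 18.2 kb away.

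Intron 1 of 1 of Mmd2 (ENSMUSG00000039533), at chr5:142600913-142601206, had SMAD2/3 at 12.2-fold and 12-fold. FOXL2 there was 6.06-fold and 7.39-fold with vehicle, and 25.3-fold and 24.5-fold in the activin lists. Activin H3K27ac flanked the site on both sides, 72 bp away at the nearer one, while vehicle H3K27ac was 5.66 kb away. The site in intron 3 of 5 of Sp4 (ENSMUSG00000025323), a zinc finger transcription factor gene, at chr12:118286797-118287114, differed in having H3K27ac 17 bp away with vehicle and 30 bp away with activin. SMAD2/3 there was 8.86-fold and 9.85-fold. A site 2.37 kb upstream of Hs3st2 (ENSMUSG00000046321), a heparan sulfate sulfotransferase gene, at chr7:121389744-121390101, had 15.3-fold and 11-fold, with an H3K27ac region 57 bp away with vehicle and 10 bp away with activin. A peak of activin H3K27ac library 2 alone, at 3.02-fold, overlapped the Hs3st2 site. The intergenic site at chr9:27643428-27643755 was nearest to the start of Spata19 (ENSMUSG00000031991), a testis gene, 247 kb off. It had SMAD2/3 at 14.6-fold and 16.1-fold and strong FOXL2 in all 4 lists (48, 41.8, 47.9 and 45.1-fold). Its activin H3K27ac was 132 bp away and its vehicle H3K27ac 20 kb away. The rest of the 20 lay nearest to RP23-387L12.4, Gm25578, Gm24246, Gm23846 (inside Macrod2), Gm9931, RP23-453O15.1, Gm26546, Gm15666 (inside Tmtc2) and Ugt2b36.

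**Figure D5:**
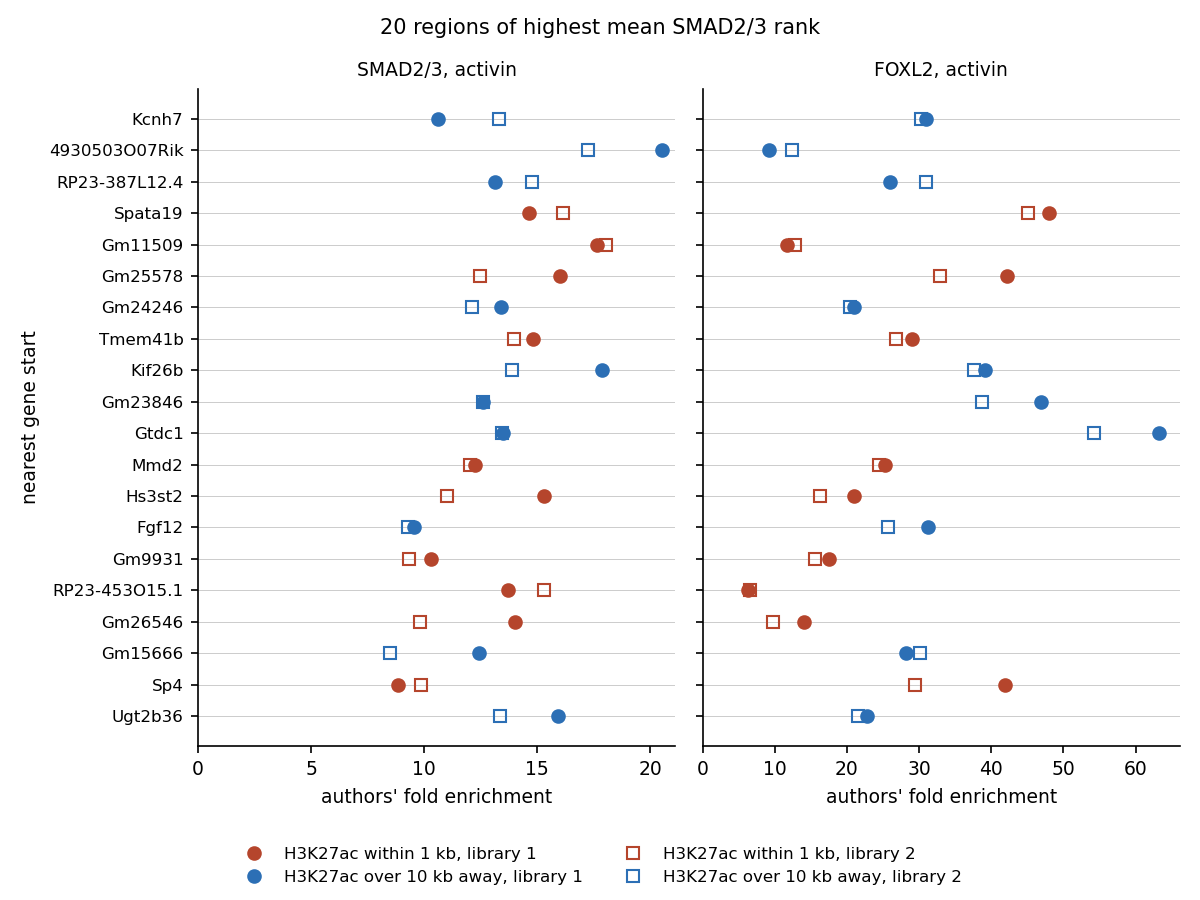
Authors' fold enrichment (x axes) of SMAD2/3 (left) and FOXL2 (right) in activin library 1 (filled circles) and library 2 (open squares) at the 20 regions of highest mean SMAD2/3 rank, named by nearest gene start. Red marks the 10 regions with H3K27ac within 1 kb and blue the 10 beyond 10 kb; both colours are spread along the order of ranks.

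The regions lay far from gene starts. By the deposited annotation 17 (1.58%) were of promoter class, against 4.05% of the acetylated new sites, a difference of -2.47 points (Newcombe 95% interval -3.48 to -1.31). Intergenic regions made up 44.9% against 36.5%, a difference of 8.42 points (4.94 to 11.9), and introns 48.6% against 53.8%. The median distance to the nearest start was 27.6 kb against 20.6 kb, and 18.3% against 10.8% lay over 100 kb away. The X chromosome held 77 regions (7.16%), against 4.39% of the acetylated new sites, a difference of 2.77 points (1.14 to 4.62). The X share of the FOXL2 regions with neither SMAD2/3 nor H3K27ac was 6.08%, closer to that of the non-acetylated sites. Of all new SMAD2/3 sites with FOXL2, 39.7% were non-acetylated on the X chromosome and from 22.3% (chromosome 14) to 37.4% (chromosome 15) on the autosomes. These intervals cover counting error over regions only.

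The 17 promoter-class regions, named here after their values were seen, included few at well-studied genes. Activin H3K27ac lay within 1 kb of 9 of them. The highest SMAD2/3 rank belonged to the start of the predicted gene Gm23513, with SMAD2/3 at 9.01-fold and 9.46-fold, activin H3K27ac at 3 bp and vehicle H3K27ac at 22.9 kb. The start of Gm9166 had the highest FOXL2 of the 17, at 77.4-fold and 66.3-fold after activin, and H3K27ac was 52.2 kb away. Regions at Rpl9 (a ribosomal protein gene), Eif4e (the cap-binding translation factor) and Phex (a phosphate-regulating peptidase gene) had SMAD2/3 at 5.83-fold and 7.24-fold, 2.89-fold and 3.75-fold, and 3.8-fold and 5.4-fold. Promoter class did not always go with a close start in the same annotation. The nearest start was 1.05 kb away for Rpl9, 22.9 kb for Eif4e and 0.418 kb for Phex.

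Among the 1075 regions the median distance to the nearest other one was 386 kb. To the nearest acetylated new site it was 206 kb, while acetylated new sites lay a median of 60.7 kb from each other. Such distances depend on the number of regions (1075 against 2665), and its part was not tested. With a gap limit of 50 kb, 944 of 1005 runs held a single region. The longest runs held 4 regions, in Ccser1 (81.4 kb on chromosome 6) and upstream of Amigo2 (31.6 kb on chromosome 15). Near Six2 (ENSMUSG00000024134), a homeobox gene, 3 regions spanned 28.3 kb (chr17:85668581-85696846), all within 42 bp of activin H3K27ac. Their SMAD2/3 fold enrichment was 6.71 and 3.36, 5.87 and 4.92, and 8.56 and 7.05. Vehicle H3K27ac lay 0.039, 0.004 and 1.935 kb from them in the same order. None of these 3 runs contained an acetylated new site. Of the Amigo2 sites, 147 to 179 kb from the start of this adhesion molecule gene, 2 lay within 1 kb of activin H3K27ac and 2 did not.

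Long genes held several regions. Ccser1 (ENSMUSG00000039578) and Prkg1 (ENSMUSG00000052920), a cGMP-dependent protein kinase gene, each held 7 intronic regions, Cntnap5a (ENSMUSG00000070695), a contactin-associated gene, held 6, and Macrod2 held 4. Upstream of Vwc2, a gene for a secreted bone morphogenetic protein inhibitor, 4 intergenic regions at 55.8 to 342 kb from the start all had FOXL2 in both vehicle lists. Their activin H3K27ac was 27.2 to 154 kb away, and their vehicle H3K27ac 2.83, 52.8, 0 (overlapping) and 93.3 kb away. Their SMAD2/3 was modest, from 3.57-fold to 6.59-fold in library 1 and from 4.14-fold to 7.17-fold in library 2. In Prkg1, 4 of the 7 lay within 1 kb of activin H3K27ac, and in Ccser1 3 of 7. The Prkg1 site of highest rank, in intron 2 of 17 at chr19:31373536-31373816, had SMAD2/3 at 11.6-fold and 11-fold, with activin H3K27ac 7 bp away and vehicle H3K27ac 52.3 kb away. The 5 regions with Ccser1 as nearest start were 221 to 928 kb from it, and their SMAD2/3 ran from 5.45-fold to 8.1-fold in library 1. No acetylated new site fell in Ccser1. The genes that held intronic regions had a median length of 133 kb, against 106 kb for those that held acetylated new sites and 17.1 kb for all protein-coding genes. Length alone can therefore raise the count in a gene, and its part was not tested.

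By nearest start, 957 genes were assigned, 869 of them to a single region, and 208 (21.7%) were also nearest to an acetylated new site. Over all 28467 genes named in the annotations, 3.36% were nearest to a non-acetylated and 6.94% to an acetylated new site. None of 39 SMAD and activin signalling genes was nearest to a non-acetylated region, whereas Smad3, Bmpr1a, Bmpr1b and Inhbb were nearest to acetylated ones. None of 21 gonadotrope genes was, whereas 9 were nearest to acetylated sites, among them Cga (the common gonadotropin α subunit), Gnrhr (the receptor for gonadotropin-releasing hormone), Nr5a1 (a gonadotrope nuclear receptor) and the homeobox genes Pitx1 and Isl1. Of 15 immediate early genes none was, and Fos was nearest to an acetylated site. Of 32 neural adhesion and guidance genes, Cntnap5a, Opcml and Unc5d were nearest to non-acetylated regions, and 7 to acetylated ones. Introns of 11 of these 32 genes held non-acetylated regions and introns of 13 held acetylated ones. The median length of the 32 genes was 1041 kb. With 1075 regions against 2665, lower counts for the smaller class are set partly by its size, and no difference between the lists was tested.

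The Opcml (ENSMUSG00000062257) site, in intron 1 of 2 of this cell adhesion gene at chr9:28480449-28480710, had SMAD2/3 at 7.35-fold and 7.13-fold. FOXL2 there was 24.1-fold and 25.4-fold with vehicle, then 19.3-fold and 23.6-fold after activin, and H3K27ac lay 1.47 kb away. Of 3 intergenic sites nearest to the netrin receptor gene Unc5d (ENSMUSG00000063626), 373 to 570 kb from its start, the one of highest mean SMAD2/3 rank was at chr8:29600521-29600816, with SMAD2/3 at 7.98-fold and 6.1-fold. Another, at chr8:29592505-29592712, had SMAD2/3 at 8.12-fold and 7.08-fold, no vehicle FOXL2, and FOXL2 at 6.54-fold and 8.14-fold after activin. The Cntnap5a sites assigned by nearest start, in introns 1 and 3 of 23, were weak, at 4.88-fold and 5.66-fold and at 2.59-fold and 3.95-fold. Sites near these neural genes thus had mean SMAD2/3 ranks from 19.5 (Cntnap5a) to 78.6 (Opcml).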

How the data were processed

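Peak lists and annotation tables of 12 ChIP-seq libraries (2 per target and treatment) were used. Bowtie2, MACS2 and HOMER are named, without versions, in the submitters' processing notes, as is the build GRCm38 (mm10). The deposited lists give, per peak and library, the authors' fold enrichment (a ratio), −log10 p, −log10 q and a score. SMAD2/3 and FOXL2 peaks as deposited all pass a q-value of 0.05. The H3K27ac lists also hold weaker peaks, with a smallest −log10 q of 1 to 1.01 per list. Ranks were made within a list only, and fold enrichments of different lists stand side by side without a comparison because depth is unknown. Coordinates are counted from 1.

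Peaks sharing 1 bp were merged with Python 3.11.15 (numpy 2.4.6, pandas 2.3.3, scipy 1.17.1) and interval functions were tested on simulated data. Where several peaks overlapped a region, the one of highest −log10 q was used, and medians cover regions with a peak. A gap of 1 bp means adjacent. Libraries were compared with exact permutation tests, and shares carry Wilson or Newcombe 95% intervals, which cover counting error only because depth is unknown and regions are not replicates. The regions, gene lists and tests were chosen with earlier results of these data known, so the gene lists are not independent evidence.

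Regions named are the 20 of highest mean SMAD2/3 rank, those nearest to list genes, the genes with most regions, the closest and farthest from H3K27ac, and the strongest 5 without vehicle FOXL2 and with H3K27ac in both vehicle lists. Others were named after their values were seen.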

Additional observations from a re-analysis of the deposited data

How the results depend on the processing

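The FOXL2 rank difference from acetylated new sites was positive and the SMAD2/3 rank difference negative under every alternative run (8.04 to 15.3 and -21.6 to -6.41 points). The activin-minus-vehicle difference in neighbouring H3K27ac stayed positive (10.2 to 29.3 points, the lowest where no H3K27ac region was allowed within 1 kb). None of these tests could reach 0.05. With the replicate block, over libraries of the same number, the last difference was 24 points, exact permutation p = 0.5.

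Leaving out 1 library at a time gave 1075 to 2004 regions, vehicle FOXL2 at 82.9% to 88.2%, vehicle H3K27ac at 2.98% to 6.79%, a median gap of 2.86 to 11.4 kb, a share within 1 kb of 32.7% to 60.5% (60.5% to peaks of activin H3K27ac library 1 without library 2, and without library 1 47% where regions were chosen anew and 41.4% for the same regions) and a summit distance of 27 to 29 bp. Requiring a gap over 1 kb left 708 regions, with vehicle FOXL2 at 83.9%, vehicle H3K27ac at 1.27% and a median gap of 29.5 kb. Barring H3K27ac in all 4 lists set the vehicle H3K27ac share to 0 by construction. With −log10 q of at least 5 for SMAD2/3 and FOXL2, vehicle FOXL2 was at 86.7% and the summit distance was 25 bp; with that limit on the vehicle FOXL2 lists alone, the share was 83.3%. Measured to vehicle FOXL2 summits, the summit distance was 39.5 bp. Measured to either activin list, which can only shorten gaps, the median gap was 0.121 kb. To vehicle regions it was 17.7 kb, with 19.6% within 1 kb of them. The cause of the other shifts was not tested. The share within 1 kb was added after the data were seen. Motif shares around summits were not run for want of a genome.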
